A study of Homo sapiens with 54 samples.

Results

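The comparison described here asked what cigarette smoke extract did to gene expression in lung carcinoma cells that also received cisplatin, at the earlier of the study's harvest times. It rests on 6 of the 54 arrays of the series, chosen by their titles: 3 biological replicates with cisplatin and smoke extract and 3 with cisplatin alone, both at 2 h. The cells were NCI-H460, an established human line from a large cell lung carcinoma. Every culture stood in medium without serum, and smoke extract (5 uM nicotine equivalent), nicotine (5 uM) or neither was added before the therapy. The therapy followed 2 h later and was 1 uM cisplatin, 6 Gy of radiation or neither, and RNA was taken 2 h or 24 h after the therapy, by when smoke extract had acted for longer than cisplatin. The 18 groups of the series are these 9 combinations at 2 times with 3 arrays each. No source used here says which cultures shared a plate, so p-values measure the spread between these arrays, and plate cannot be told apart from treatment.

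Cigarette smoke carries polycyclic aromatic hydrocarbons, which bind the aryl hydrocarbon receptor (AHR), a transcription factor held in the cytoplasm by chaperones. The bound receptor moves to the nucleus, pairs with ARNT and binds short DNA elements with the core GCGTG near genes such as CYP1A1, an enzyme that oxidises such hydrocarbons. Smoke also carries oxidants, which activate NRF2 and the genes of glutathione and quinone metabolism. Cisplatin crosslinks DNA, and its lesions are handled by nucleotide excision repair and the Fanconi anaemia pathway, with p53 and its target CDKN1A among the responders in cells with intact p53.

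Levels are array values on a log2 scale and a difference of 1 on that scale is a factor of 2. In bulk RNA, fewer cells with a transcript and less of it per cell cannot be told apart. The array medians of the series lay between 6.43 and 6.63. Epithelial keratins KRT8 and KRT18 were at 11.89 and 11.32 with cisplatin alone and VIM at 11.62, whereas CDH1 (4.98) and EPCAM (5.19) lay near 4.83, the median value of 453 olfactory receptor, taste receptor and keratin-associated protein genes that serve here as a measure of background. The leukocyte marker PTPRC was at 3.37. Of 15 epithelial and carcinoma markers only CHGA passed the test, with a rise of 0.35 (limma adjusted p = 0.0089), beside 5.46% called over all genes. The CHGA call was lost in 4 of 14 alternative settings (adjusted p up to 0.17). None of the 9 leukocyte, 9 fibroblast and 8 endothelial markers measured passed the test in either direction. Their summed levels per array with cisplatin and with cisplatin and smoke extract ran over 48.7 to 50.5 and 49.8 to 51.5 for leukocytes, over 50.6 to 51.5 and 51.5 to 52.4 for fibroblasts, and over 40.9 to 44.3 and 42.2 to 44.6 for endothelium. The replicate 3 arrays stood apart within their groups: the mean of the background genes was 5.06 in replicate 3 with smoke extract, against 4.80 and 4.83 in the other replicates, and with cisplatin it was 4.66 in replicate 3 against 4.86 and 4.99. Over all 54 arrays it ran from 4.66 to 5.15. The part of this background in the results was not tested beyond the counts given below without these arrays and with the background mean as a covariate. The 95th percentile of the values of the background genes was 6.85, so a level below that is not distinct from background, and a difference measured from it can understate a change.

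The upstream sequences of 4 of the genes that rose and of SLF1, which fell, are shown because they bear on the AHR element and on a pair of neighbouring starts. They are the 250 bases before the start of the gene in RefSeq on GRCh38.p14, 5′ to 3′ on the strand of the gene, with the core GCGTG of the AHR element, or its reverse complement CACGC, in capitals. CYP1A1 lies at chr15:74725529-74725778 on the minus strand, TIPARP at chr3:156674340-156674589 on the plus strand (the first of 3 listed starts), SECTM1 at chr17:82333767-82334016 on the minus strand, STC2 at chr5:173328415-173328664 on the minus strand and SLF1 at chr5:94618419-94618668 on the plus strand.
CYP1A1: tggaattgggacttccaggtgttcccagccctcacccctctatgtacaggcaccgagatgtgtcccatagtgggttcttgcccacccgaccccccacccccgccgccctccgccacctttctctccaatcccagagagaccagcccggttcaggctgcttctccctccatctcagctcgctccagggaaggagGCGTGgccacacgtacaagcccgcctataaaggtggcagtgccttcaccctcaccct
TIPARP: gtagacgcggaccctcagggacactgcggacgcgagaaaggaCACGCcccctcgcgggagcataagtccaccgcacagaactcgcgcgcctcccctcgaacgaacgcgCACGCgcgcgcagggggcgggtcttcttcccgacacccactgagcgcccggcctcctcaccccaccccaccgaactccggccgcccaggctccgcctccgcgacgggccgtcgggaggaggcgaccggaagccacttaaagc
SECTM1: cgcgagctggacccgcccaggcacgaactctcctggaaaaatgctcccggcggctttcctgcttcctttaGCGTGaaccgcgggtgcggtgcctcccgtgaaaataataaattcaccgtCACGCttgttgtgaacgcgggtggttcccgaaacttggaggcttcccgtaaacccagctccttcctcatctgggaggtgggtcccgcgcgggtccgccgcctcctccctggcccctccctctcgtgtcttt
STC2: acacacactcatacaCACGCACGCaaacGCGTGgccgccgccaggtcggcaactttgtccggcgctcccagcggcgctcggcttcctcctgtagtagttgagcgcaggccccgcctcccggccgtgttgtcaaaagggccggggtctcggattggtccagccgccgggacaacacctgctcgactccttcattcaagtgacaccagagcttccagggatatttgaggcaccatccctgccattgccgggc
SLF1: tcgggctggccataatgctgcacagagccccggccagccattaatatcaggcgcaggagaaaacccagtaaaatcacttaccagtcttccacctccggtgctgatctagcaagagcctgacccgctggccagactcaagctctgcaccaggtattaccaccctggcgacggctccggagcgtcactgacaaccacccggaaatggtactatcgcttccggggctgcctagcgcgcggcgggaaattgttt
In CYP1A1 a single core began 57 bases before the start. SECTM1 held cores at 180 and 131 bases, TIPARP at 208 and 142, and STC2 at 235, 231 and 222, while the SLF1 window held none. The longer element TNGCGTG, read on both strands, was present in the SECTM1 and STC2 windows and not in those of CYP1A1, TIPARP and SLF1.

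Smoke extract changed 1005 of 18417 genes (5.46% called) in cisplatin-treated cells at 2 h, at a limma adjusted p under 0.05. The count was 465 when the fit held the arrays of these groups alone, 453 of them among the 1005. Of the 1005, 660 were higher (3.58%) and 345 lower (1.87%) than with cisplatin alone. The median change of the called genes was 0.41 for those that rose and -0.44 for those that fell, against 0.05 over all genes. More than 1.5-fold changes were found for 151 genes that rose (0.82%) and 83 that fell (0.451%). The 3 arrays of each group did not overlap for 639 of the genes called higher and 331 of those called lower. Over all genes tested, the groups did not overlap for 2114 genes that were higher (11.5%) and 1006 that were lower (5.46%). The count of falling genes rested partly on single arrays: it was 199 without smoke extract replicate 3, 212 without cisplatin replicate 3 and 156 without both, where 802 genes rose. The count of rising genes was 429 without smoke extract replicate 1. With the background mean as a covariate, 1013 genes rose and 449 fell.

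**Figure D1:**
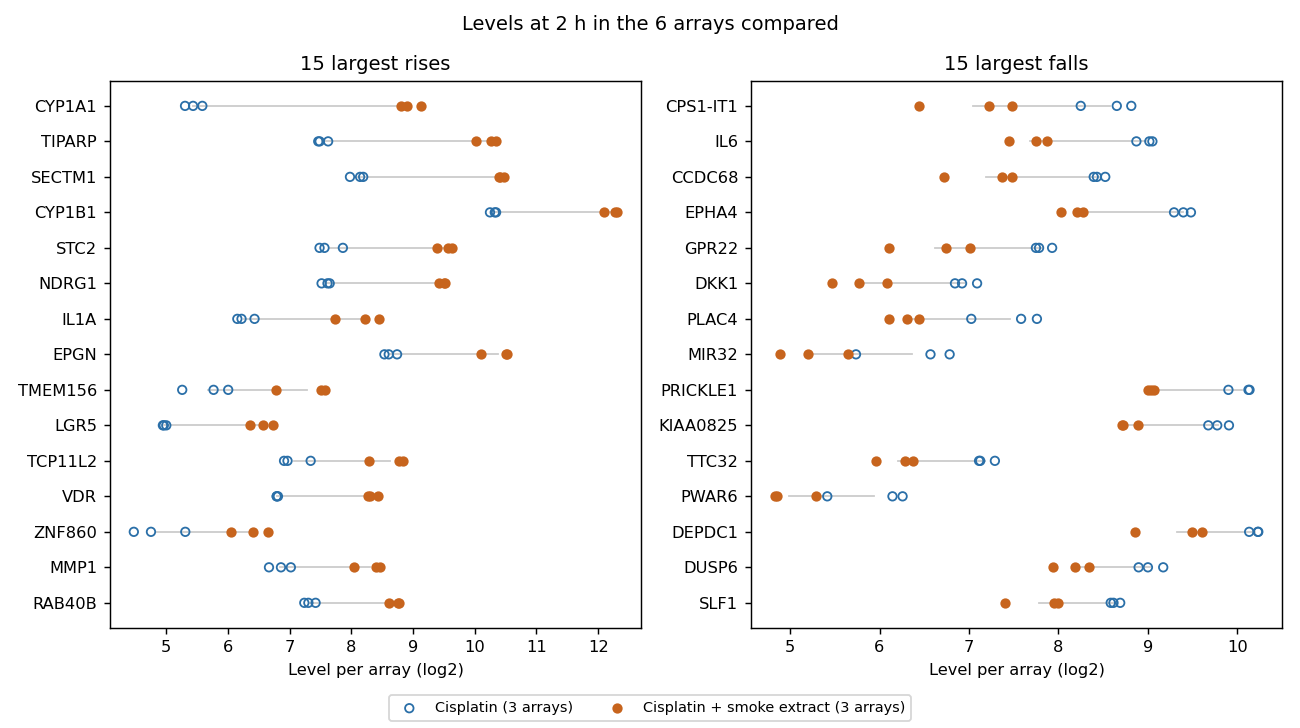
Level of each of the 15 genes with the largest rise (left) and the 15 with the largest fall (right) in the 6 arrays compared, on a log2 scale, with open circles for cisplatin and filled circles for cisplatin and smoke extract. Each line joins the group means, and the circles of the groups do not overlap for any gene because that was part of how the genes were chosen.

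Genes known as AHR targets headed the rising genes. Of 11 measured members of the AHR target list, 8 rose and 0 fell, with a median change of 0.86 against 0.05 over all genes, where 3.58% of genes rose. The list was written with results of the whole series known, so its share is not an independent test. CYP1A1 read 5.44, 5.59 and 5.31 with cisplatin and 9.12, 8.91 and 8.80 with smoke extract added. All smoke extract arrays lay more than 3 log2 units above every cisplatin array. The difference was 3.50 (SE 0.14, adjusted p = 1.69e-24). Since the cisplatin arrays lay in the range of the background genes, no fold is given for CYP1A1. TIPARP, a mono-ADP-ribosyltransferase that shuts down AHR, read 7.46, 7.49 and 7.62 with cisplatin and 10.35, 10.27 and 10.02 with smoke extract, a rise of 2.69 (SE 0.09). CYP1B1, a related cytochrome, already stood at 10.25, 10.32 and 10.35 with cisplatin and reached 12.31, 12.28 and 12.09, a rise of 1.92 (SE 0.08). The groups were well apart for both genes, and the rise of CYP1B1 was 3.78-fold. STC2, a secreted glycoprotein, went from 7.57, 7.49 and 7.86 to 9.57, 9.63 and 9.39. HES1, a repressor in the Notch pathway, rose by 1.37, the cytochrome gene CYP2S1 by 0.86, the aldehyde dehydrogenase gene ALDH3A1 by 0.60 and the amino acid transporter gene SLC7A5 by 0.25. The members that did not pass were CYP1A2 (0.08), LRAT (0.10) and NQO1 (0.11). NQO1, a quinone reductase, was high in every array: 12.45, 12.45 and 12.51 with cisplatin and 12.67, 12.56 and 12.52 with smoke extract, with adjusted p = 0.13.

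The receptor's own machinery gave 2 calls, beside 5.46% called over all genes. Of 11 measured components, SRC rose by 0.27 (adjusted p = 0.0033) and AHR itself fell by 0.28 (adjusted p = 0.024), while ARNT differed by -0.08. AHR read 9.96, 10.04 and 10.01 with cisplatin and 9.78, 9.73 and 9.67 with smoke extract, groups that lay close but did not overlap. The call for AHR was lost in 6 of 14 alternative settings, which were the fit on the compared groups alone and those without replicate 2 or replicate 3 of either group or without both replicate 3 arrays, with adjusted p up to 0.16. The SRC call was lost in the fit on the compared groups alone (adjusted p = 0.11).

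Beyond that list, the largest rises were of genes with varied roles. SECTM1, a transmembrane and secreted protein that engages T cells, read 8.14, 7.98 and 8.19 with cisplatin and 10.47, 10.41 and 10.40 with smoke extract, a rise of 2.32 (SE 0.10). NDRG1, a stress-response gene often raised by hypoxia, read 7.52, 7.62 and 7.65 and then 9.52, 9.50 and 9.42, a rise of 1.88 (SE 0.08). VDR, the vitamin D receptor, was almost the same in the 3 cisplatin arrays (6.81, 6.79 and 6.79) and stood at 8.44, 8.30 and 8.27 with smoke extract. LGR5, a receptor for R-spondins in Wnt signalling, rose from 4.95, 4.96 and 5.00, close to the background genes, to 6.74, 6.56 and 6.37. The other 4 rises among the 15 largest that belong to no list were TMEM156 (1.61), TCP11L2 (1.56), ZNF860 (1.53) and RAB40B (1.39). ZNF860 also started near background, at 4.76, 4.48 and 5.31, within the range of the background genes. LGR5 and ZNF860 lay below 6.85 in both groups, and VDR and TMEM156 (mean 5.68) did so with cisplatin alone. Levels below 6.85 are not distinct from background.

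Inflammatory ligands moved in both directions. IL1A, which codes for interleukin-1 alpha, read 6.15, 6.22 and 6.43 with cisplatin and 8.45, 8.23 and 7.73 with smoke extract, a rise of 1.87 (SE 0.16, adjusted p = 1.67e-12). IL6, a cytokine and NF-kB target, did the opposite, reading 8.87, 9.02 and 9.05 and then 7.87, 7.74 and 7.45, so that it fell by 1.29 (SE 0.21, adjusted p = 2.02e-05). Every IL6 array with smoke extract was lower than every array without it. Of 37 measured cytokine, chemokine and NF-kB genes, 5 rose and 4 fell, beside 3.58% higher and 1.87% lower over all genes. The median change of the list was 0.03. IL1B (0.75), the receptor subunit IL1RAP (0.79), LIF (0.51) and IL6R (0.36) rose with IL1A, while TNFAIP3 (-0.61), a feedback inhibitor of NF-kB, LIFR (-0.55) and PTGS2 (-0.51), the inducible cyclooxygenase, fell with IL6. The chemokine genes CXCL1 (-0.31), CXCL2 (-0.37) and CXCL8 (-0.29) did not pass the test. Cisplatin arrays without smoke extract held IL1B at 5.18, 5.31 and 5.22, and the smoke extract arrays held it at 6.14, 5.87 and 5.95. IL1B thus lay below 6.85 in both groups, and IL1A did so with cisplatin alone. Such levels are not distinct from background.

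Ligands and feedback genes of the EGF receptor and MAP kinase pathway were also split. EPGN, an EGF receptor ligand, read 8.54, 8.61 and 8.74 with cisplatin and 10.52, 10.51 and 10.10 with smoke extract, a rise of 1.75 (SE 0.18). NRG1, a ligand of ERBB3 and ERBB4, rose by 0.52 and EGFR fell by 0.33, and no other of the 13 measured family members passed. The EGFR call was lost in 3 of 14 settings, 2 of them without replicate 1 of either group, with adjusted p up to 0.075. Among 22 feedback genes, 4 rose and 3 fell. The calls of both lists are to be read beside 3.58% higher and 1.87% lower over all genes. SPRED1, an inhibitor of RAS signalling, rose from 8.68, 8.31 and 8.70 to 9.88, 9.86 and 9.63, whereas DUSP6, the phosphatase that removes phosphate from ERK, fell from 8.90, 9.00 and 9.17 to 8.34, 8.18 and 7.94. The change was 1.22 (SE 0.12) for SPRED1 and -0.87 (SE 0.10) for DUSP6. DUSP14 (0.69), SPRY2 (0.51) and PHLDA1 (0.32) rose as well, and DUSP1 (-0.43) and SPRY3 (-0.30) fell. Without both replicate 3 arrays 3 feedback genes rose and 1 fell.

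Of 30 immediate early transcription factors, 6 rose and 3 fell, beside 3.58% higher and 1.87% lower over all genes. IER3, an early gene that modulates survival, rose by 1.06, MAFF, a small MAF protein, by 0.79, FOSL2 by 0.49, FOSL1 by 0.41, IER5 by 0.36 and MYC by 0.33. NR4A1, an orphan nuclear receptor, read 8.39, 8.51 and 8.48 with cisplatin and 7.61, 7.54 and 7.84 with smoke extract, and it fell by 0.79 (SE 0.11). ID2 (-0.62), an inhibitor of helix-loop-helix factors, and KLF10 (-0.29) fell too. FOS (0.61), FOSB (0.65), EGR1 (0.04), JUN (-0.11) and ATF3 (0.08) did not pass.

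Oxidant and protein stress genes responded in part. Of 35 measured NRF2 targets, 3 rose and 0 fell, with a median of 0.04, close to that of all genes, where 3.58% rose. HMOX1, the inducible haem oxygenase, read 8.36, 8.44 and 8.39 with cisplatin and 9.30, 9.13 and 8.99 with smoke extract, a rise of 0.74 (SE 0.10, adjusted p = 3.56e-07). TRIM16 (0.54) and OSGIN1 (0.47) rose as well. The glutathione synthesis genes GCLC (0.24) and GCLM (0.26), SRXN1 (0.23), TXNRD1 (0.07) and SLC7A11 (-0.05) did not pass. With both replicate 3 arrays left out, 6 members rose. Of 34 genes of the integrated stress and unfolded protein response, 5 rose and 0 fell. They were DDIT4 (1.06), an inhibitor of mTORC1, PPP1R15A (0.82) and PPP1R15B (0.44), which direct dephosphorylation of the translation factor eIF2 alpha, CEBPB (0.68) and SLC7A5 (0.25). The pathway's central factors did not pass, with ATF4 at -0.08 and DDIT3 at -0.23, nor did the chaperone gene HSPA5 (-0.06), and 0 of 20 heat shock genes were called.

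DDIT4 and STC2 are also on the list of hypoxia and glycolysis genes, where 6 of 38 rose and 0 fell. Over all genes 3.58% rose and 1.87% fell. The other rises on the list were NDRG1, SLC2A1 (0.62), the main glucose transporter, HK2 (0.45) and KDM3A (0.37). Widely used hypoxia reporters on the same list did not pass, with VEGFA at 0.27, PDK1 at -0.16 and BNIP3 at -0.03. Of 11 metallothionein and zinc export genes only SLC30A1, a zinc exporter, passed, with a rise of 0.43.

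**Figure D2:**
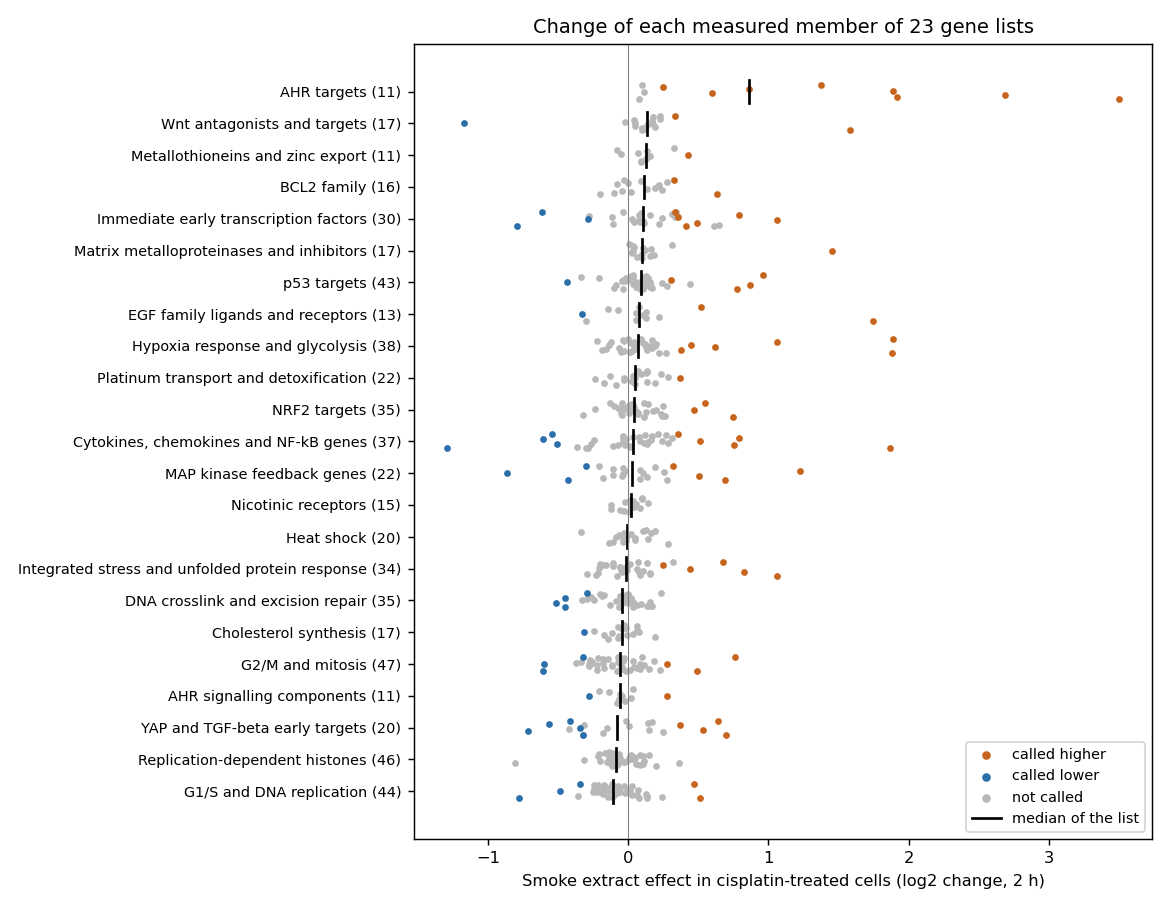
Change in log2 units between cisplatin with smoke extract and cisplatin alone for each measured member of 23 gene lists, with the number measured in brackets, orange for genes called higher, blue for genes called lower and grey for genes not called. The black bar marks the median of a list, which is 0.86 for AHR targets and lies between -0.11 and 0.13 for each of the others.

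Genes that mark the response to DNA damage were split. Of 43 measured p53 targets, 4 rose and 1 fell, beside 3.58% higher and 1.87% lower over all genes, and the median was 0.09. CDKN1A, the cyclin-dependent kinase inhibitor p21, read 8.11, 8.30 and 8.37 with cisplatin and 9.18, 9.02 and 8.90 with smoke extract, a rise of 0.77 (SE 0.16, adjusted p = 5.92e-04). MDM2, the ubiquitin ligase of p53, read 10.18, 10.10 and 10.21 and then 10.21, 10.24 and 9.93, and its groups overlapped (adjusted p = 0.93). CCNG2 (0.87), GDF15 (0.96) and TP53I3 (0.31) rose and PLK2 (-0.44) fell, while BAX (0.13), GADD45A (0.09) and DDB2 (0.09) did not pass. The GDF15 call was lost in 5 of 14 settings (adjusted p up to 0.11), among them those without replicate 1 or replicate 2 of either group. The PLK2 call was lost in 3, including that without smoke extract replicate 3 (up to 0.23).

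Repair genes for crosslinks and bulky lesions gave 0 rises and 4 falls among 35 measured, a share of falls to be read beside the 1.87% over all genes. The 4 were FANCL (-0.51), the ubiquitin ligase subunit of the Fanconi anaemia core complex, FANCB (-0.45), another subunit, BRIP1 (-0.45), a helicase that binds BRCA1, and MSH6 (-0.30), a mismatch repair protein. FANCL read 8.39, 8.14 and 8.34 with cisplatin and 7.66, 8.04 and 7.62 with smoke extract. FANCB overlapped, at 7.19, 6.89 and 7.29 against 6.91, 6.89 and 6.23, and its lowest value was in smoke extract replicate 3. With both replicate 3 arrays left out, 0 members fell and 2 rose. None of the 4 falls was called without smoke extract replicate 3 or without cisplatin replicate 3, and their adjusted p reached 0.21 for FANCL, 0.29 for BRIP1, 0.44 for MSH6 and 0.65 for FANCB. The list's median was -0.04, and the excision genes ERCC1 (0.17), XPC (0.03) and XPA (-0.07) did not pass. Of 22 platinum transport and detoxification genes only LRRC8A passed, beside 5.46% called over all genes. LRRC8A is a subunit of the volume-regulated anion channel through which cisplatin can enter cells. It rose by 0.37 (adjusted p = 0.0064), a call lost without both replicate 3 arrays (adjusted p = 0.11).

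In the BCL2 family, 2 of 16 rose, beside 3.58% over all genes. BAK1, which opens the outer mitochondrial membrane in apoptosis, read 7.57, 7.49 and 7.68 with cisplatin and 8.57, 8.10 and 7.96 with smoke extract, a rise of 0.63 (SE 0.12, adjusted p = 4.47e-04). BMF, a BH3-only protein, rose by 0.32, a call that was lost in 7 of 13 settings, among them those without replicate 1 or replicate 3 of either group. BMF lay below 6.85 in every array of both groups, a level not distinct from background. BCL2 (-0.20), MCL1 (0.02) and BCL2L1 (-0.10) did not pass.

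Cell cycle lists were mixed, with calls to be read beside 3.58% higher and 1.87% lower over all genes. Of 44 genes of the G1/S transition and replication, CDK6 (0.51) and E2F7 (0.47) rose and CCNE2 (-0.78), E2F8 (-0.49) and CDC6 (-0.34) fell, with a median of -0.11. Of 47 mitotic genes, KIF23 (0.76), a kinesin of the midbody, CDC25B (0.49) and CDC20 (0.27) rose, while WEE1 (-0.61), the kinase that holds CDK1 inactive, KIF18A (-0.60) and ECT2 (-0.33) fell. The falls of CCNE2, WEE1 and KIF18A were not called without smoke extract replicate 3, with adjusted p of up to 0.27 over their settings, and that of WEE1 was also lost without replicate 1 of either group and without cisplatin replicate 3. Without both replicate 3 arrays 1 gene of the G1/S list and 0 of the mitotic list fell. Of 46 measured histone genes, 0 were called.

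Members of the Wnt and TGF-beta lists were called in both directions, whereas the metalloproteinase list held a rise only. MMP1, the interstitial collagenase, read 6.86, 6.67 and 7.02 with cisplatin and 8.47, 8.40 and 8.05 with smoke extract, a rise of 1.46 (SE 0.13), and no other of 17 metalloproteinase and inhibitor genes passed. DKK1, a secreted Wnt antagonist, read 6.92, 6.84 and 7.09 and then 6.09, 5.78 and 5.47, and it fell by 1.17 (SE 0.14). In the Wnt list of 17, LGR5 and LEF1 (0.33) rose and DKK1 fell. The LEF1 call, at a level near background, was lost in 7 of 13 settings, among them each of those without a smoke extract array. Of 20 early targets of YAP and TGF-beta, AJUBA (0.69), TGIF1 (0.64), AXL (0.53) and F3 (0.37) rose and ANKRD1 (-0.72), TGFB2 (-0.57), TGFBR1 (-0.42), AMOTL2 (-0.35) and CCN2 (-0.33) fell, beside 3.58% higher and 1.87% lower over all genes. Without both replicate 3 arrays 2 of these falls, those of ANKRD1 and TGFB2, were called. HMGCS1 (-0.32) was the 1 of 17 cholesterol synthesis genes called, a call lost without replicate 3 of either group (adjusted p up to 0.24), and 0 of 15 nicotinic receptor genes were called.

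The largest fall was that of CPS1-IT1, an intronic transcript of the CPS1 gene, from 8.82, 8.25 and 8.65 to 6.45, 7.48 and 7.22, so that it fell by 1.52 (SE 0.22). Unspliced CPS1 RNA and CPS1-IT1 cannot be told apart by probes in that intron. EPHA4, an ephrin receptor, fell evenly, from 9.40, 9.29 and 9.48 to 8.21, 8.28 and 8.03, which is 2.33-fold. PRICKLE1, a planar cell polarity protein, fell from 10.14, 9.90 and 10.12 to 9.00, 9.06 and 9.03, with very little spread in the smoke extract group. CCDC68 (-1.26), GPR22 (-1.20), PLAC4 (-1.17), MIR32 (-1.12), TTC32 (-0.96), PWAR6 (-0.95) and DEPDC1 (-0.88) fell as well. MIR32 (mean 6.36 with cisplatin and 5.24 with smoke extract) and PWAR6 (5.94 and 4.99) lay below 6.85 in both groups. Such levels are not distinct from background. Smoke extract replicate 3 held the lowest value for most of the 15 largest falls. These were IL6, CCDC68, EPHA4, GPR22, DKK1, PLAC4, TTC32, PWAR6, DEPDC1, DUSP6 and SLF1. For CPS1-IT1, MIR32, PRICKLE1 and KIAA0825 the lowest value was in smoke extract replicate 1. Among the smoke extract arrays, replicate 3 was also the lowest for each of the 15 largest rises, such as IL1A (8.45, 8.23 and 7.73). PWAR6, a non-coding transcript of the Prader-Willi region, lost its call in 5 of 13 settings, those without replicate 1 or replicate 3 of either group or without both replicate 3 arrays, and MIR32, whose row reads a microRNA precursor, lost it without both replicate 3 arrays (adjusted p = 0.085). KIAA0825 and SLF1, the latter a factor in recruiting SMC5/6 to damaged DNA, fell together by 1.01 (SE 0.11) and 0.85 (SE 0.14). They start 65 bases apart on opposite strands of chromosome 5, so that the SLF1 window printed above overlaps the region before KIAA0825; this was noticed after the values were seen.

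Genes that fell were longer than genes that rose. Among the protein-coding genes with a length in RefSeq on GRCh38.p14, the median was 99.9 kb for the 324 that fell, 26.8 kb for the 654 that rose and 27.3 kb for all 16903. Genes over 100 kb made up 50.0% of those that fell, 19.7% of those that rose and 18.2% of all. The share of genes called lower was 0.9% below 10 kb, 0.77% from 10 to 30 kb, 1.8% from 30 to 100 kb, 4.93% from 100 to 300 kb and 6.38% above 300 kb. The share called higher had no such order, at 3.61%, 4.17%, 3.6%, 4.63% and 2.77%. With each array of the compared groups left out in turn, with both replicate 3 arrays left out, or with the background mean as a covariate, the median length of the genes that fell was from 90.9 to 122.2 kb. Median levels differed between the length classes, from 6.78 below 10 kb to 7.50 between 30 and 100 kb and 6.34 above 300 kb, and the part of level in the result was not tested. With smoke extract alone the 363 protein-coding genes that fell had a median of 50.4 kb and the 315 that rose 48.2 kb. The share called lower there was 1.49% below 10 kb and 4.3% above 300 kb. In irradiated cells the 165 that fell had a median of 33.5 kb and the 314 that rose 53.7 kb, so the order was the reverse of that in cisplatin-treated cells. The differences between these sets were not tested.

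**Figure D3:**
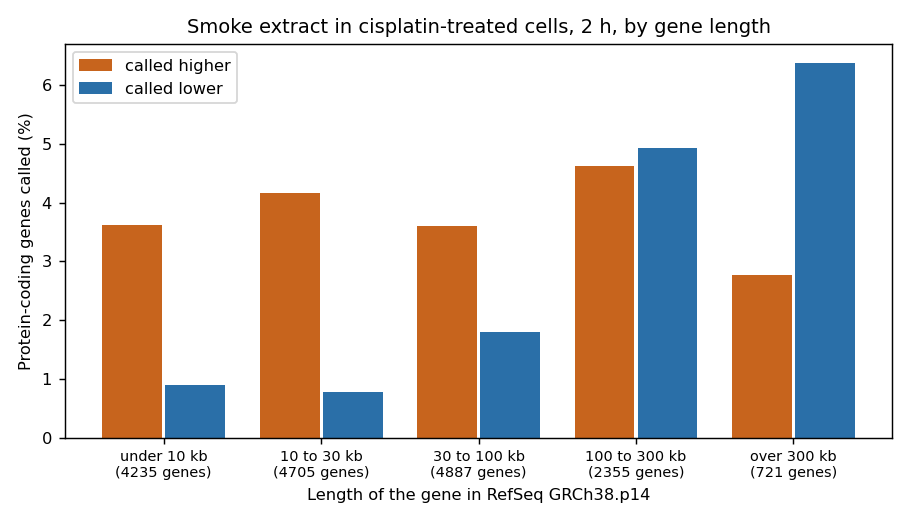
Percent of protein-coding genes called higher (orange) and called lower (blue) by smoke extract in cisplatin-treated cells at 2 h, in 5 classes of gene length. The share called lower is 0.9% in the shortest class and 6.38% in the longest.

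A promoter window was listed for 14239 of the 18417 genes, and the first listed window was used. The core GCGTG or CACGC was present in 39.7% of these windows, in 47.5% of the 537 of genes that rose and in 33.6% of the 274 of genes that fell. The longer element TNGCGTG, every instance of which holds the core, was present in 5.5%, 10.1% and 3.6%. Of the 15 largest rises 10 had a window, and those of SECTM1, STC2 and ZNF860 held the longer element. Of the 15 largest falls 12 had a window, and 0 held it. These are matches of letters within 250 bases and say nothing of elements farther away.

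Whether cisplatin altered the response was asked by setting the smoke extract effect in cisplatin-treated cells against that in cells with no therapy. Smoke extract alone changed 695 genes (3.77%), 320 higher (1.74%) and 375 lower (2.04%). No array is shared between these comparisons. Of the 660 genes that rose in cisplatin-treated cells 280 also rose with smoke extract alone, which is 42.4% of the former and 87.5% of the latter. Of the 345 that fell, 170 also fell, which is 49.3% and 45.3%. The number called in opposite directions was 0. The test of the difference between the effects called 0 genes (0%) in limma, with a smallest adjusted p of 0.39. At an unadjusted p under 0.05 there were 1270 genes, 6.9% of all genes. For CYP1A1 the difference was 0.13, with a 95% interval from -0.26 to 0.52. The 15 largest rises were all called with smoke extract alone, with a median of 1.82, and so were 12 of the 15 largest falls. MIR32 (-0.36), PWAR6 (-0.23) and DEPDC1 (-0.40) were the others.

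DUSP1, a phosphatase of MAP kinases induced by stress, had the smallest p for that difference. It read 10.21, 10.29 and 10.21 in untreated cells and 9.10, 8.86 and 9.29 with smoke extract alone. In the cisplatin cultures without smoke extract it stood lower than in untreated cells, at 9.37, 9.40 and 9.68, and it read 9.30, 8.98 and 8.88 with both. The group mean of DUSP1 went from 10.24 to 9.08 with smoke extract alone and from 9.48 to 9.05 in cisplatin-treated cells, and the effects differed by 0.72 (SE 0.15, limma adjusted p = 0.39). In irradiated cells the mean went from 10.06 to 9.21, so the smoke extract groups lay closer together than the groups without it. The call for DUSP1 in cisplatin-treated cells was lost in 4 of 14 settings, those without replicate 3 of either group among them (adjusted p up to 0.30). ASPH (-0.35) and TRIP6 (0.40), next in order, both had adjusted p = 0.49. TRIP6 read 8.98, 8.98 and 8.99 with cisplatin and 9.28, 9.18 and 9.24 with smoke extract added, but 9.11, 9.14 and 9.09 untreated and 8.94, 8.89 and 9.05 with smoke extract alone.

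HMOX1 and BAK1 are further members whose point values lay apart. The rise of HMOX1 was 0.74 in cisplatin-treated cells, 0.38 with smoke extract alone and 0.12 in irradiated cells, where it was not called. That of BAK1 was 0.63, 0.05 and 0.02, and of these values the first was called. At 24 h the BAK1 effect was 0.01. The tests of the difference from smoke extract alone had adjusted p = 0.62 for HMOX1 and 0.50 for BAK1, so neither effect is shown to depend on cisplatin.

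**Figure D4:**
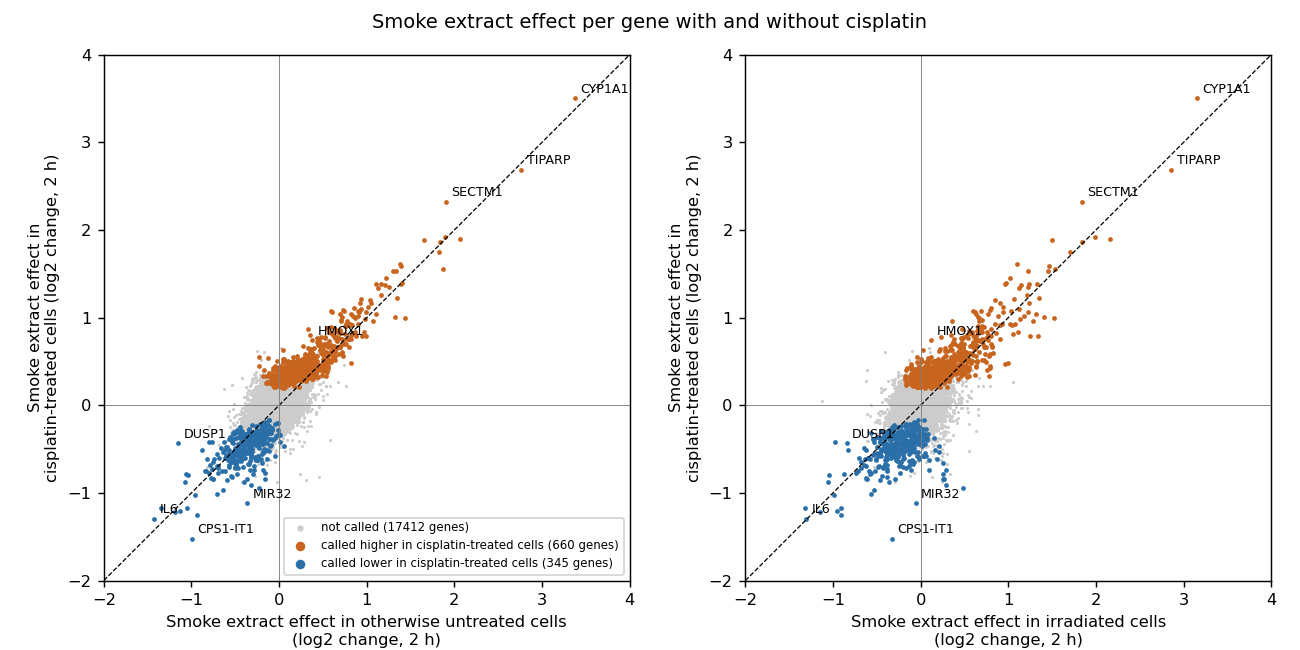
Smoke extract effect on each of 18417 genes in cisplatin-treated cells (vertical axis) against that in otherwise untreated cells (left) and in irradiated cells (right), all as log2 changes at 2 h, with the dashed line marking equal effects. Orange and blue points are the 660 and 345 genes called in cisplatin-treated cells, and CYP1A1, TIPARP and SECTM1 lie near the line at the upper right.

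In irradiated cells smoke extract changed 490 genes (2.66%), 323 higher (1.75%) and 167 lower (0.907%). Of the genes that rose in cisplatin-treated cells 265 also rose there (40.2% of the 660, 82.0% of the 323), and of those that fell 105 also fell (30.4% of the 345, 62.9% of the 167). The 15 largest rises were all called in irradiated cells, and so were 9 of the 15 largest falls. CPS1-IT1, the largest fall, stood at -0.33 there (limma adjusted p = 0.80) and PWAR6 at 0.48, and neither was called. The difference between the effects was called for 0 genes (0%), with 1493 (8.11%) at an unadjusted p under 0.05. Without radiation replicate 3 it was called for 57 genes, 24 higher and 33 lower. OSBPL10, an oxysterol-binding protein, had the smallest p, with a difference of 0.48 (adjusted p = 0.082). It read 7.68, 7.69 and 7.83 with cisplatin and 8.83, 8.86 and 8.72 with smoke extract added, against 7.82, 7.85 and 7.89 with radiation and 8.48, 8.42 and 8.43 with both. The nuclear non-coding RNA MALAT1 differed by -0.67 (adjusted p = 0.099). Its radiation arrays read 11.50, 11.42 and 11.96, so that replicate 3 lay apart from the other 2. The same array was high for ANKRD36B (7.61, 7.39 and 8.18), whose difference was -1.04 with adjusted p = 0.18.

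Nicotine served as the control for the alkaloid in the extract. Added to cisplatin at 5 uM it changed 0 genes (0%) in limma, with 324 (1.76%) at an unadjusted p under 0.05. Its effect on CYP1A1 was -0.25 and on IL6 -0.01. Set against cisplatin with nicotine, cisplatin with smoke extract differed for 876 genes (4.76%), 512 higher (2.78%) and 364 lower (1.98%). CYP1A1 was higher by 3.76, TIPARP by 2.57, SECTM1 by 2.23, CYP1B1 by 1.94 and STC2 by 1.93, and the lowest values were those of CPS1-IT1 (-1.50), DKK1 (-1.33), PLAC4 (-1.30), GPR22 (-1.29) and IL6 (-1.28). This comparison and the main one share the smoke extract arrays, so the likeness of their values is not independent. Of the 15 largest rises 15 were called against nicotine, and of the 15 largest falls 14.

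At 24 h smoke extract changed 5275 genes in cisplatin-treated cells (28.6%), 2683 higher (14.6%) and 2592 lower (14.1%). The background genes differed between these groups as well. Their mean was 5.09, 4.98 and 5.11 in the smoke extract arrays and 4.82, 4.95 and 4.70 with cisplatin alone. The part of this difference in the 24 h counts was not tested. Of the genes that rose at 2 h 294 were higher at 24 h (44.5% of the 660, 11.0% of the 2683), and 10 were lower. Of those that fell at 2 h 246 were lower at 24 h (71.3% of the 345, 9.5% of the 2592). The change in the effect between the times was called for 483 genes (2.62%), 64 with a higher value at 24 h (0.348%) and 419 with a lower one (2.28%). That count ran from 171 without smoke extract replicate 1 at 2 h to 1337 without cisplatin replicate 2 at 24 h, and it was 1317 without smoke extract replicate 3 at 2 h. It was 83 when the fit held the 4 compared groups alone and 350 with the background mean as a covariate.

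MMP1 grew most between the times. It read 5.97, 6.02 and 6.27 with cisplatin at 24 h and 10.20, 10.38 and 10.45 with smoke extract added, a rise of 4.25 against 1.46 at 2 h. These 24 h cisplatin values lay below 6.85 and are not distinct from background, so the rise can be understated. The effect on CYP1A1 was 4.19 at 24 h and 3.50 at 2 h, a change of 0.69 (adjusted p = 0.041). SCUBE1, a secreted EGF-like domain protein, rose from 7.14 ± 0.08 to 8.11 ± 0.21 at 2 h and from 7.22 ± 0.07 to 9.96 ± 0.05 at 24 h (mean ± SD, n = 3). The chemokine gene CXCL8 went from 9.59 ± 0.15 to 9.30 ± 0.08 at 2 h, a difference that was not called, and from 9.61 ± 0.29 to 10.29 ± 0.43 at 24 h, and the change in its effect was 0.97 (adjusted p = 0.0011). CMTM3, a chemokine-like membrane protein, did the reverse, rising from 8.95 ± 0.04 to 10.33 ± 0.11 at 2 h and standing at 8.91 ± 0.13 and 8.85 ± 0.09 at 24 h. Its effect dropped by 1.45 (SE 0.13). IL6 at 24 h read 9.44, 7.84 and 7.62 with smoke extract, so its arrays overlapped those of cisplatin (8.77, 8.35 and 9.10).

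Lists shifted between the times as well. Of 47 mitotic genes the effect was lower at 24 h for 14 and higher for 0, and of 34 stress response genes it was lower for 10 and higher for 0, beside 2.28% lower over all genes. For p53 targets it was lower for 6 of 43. CDKN1A, which rose by 0.77 at 2 h, stood at -0.03 at 24 h, and MDM2 at -0.50. In the AHR target list 7 of 11 were higher at 24 h, beside 14.6% over all genes, with the change in effect higher for 2 and lower for 3.

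**Figure D5:**
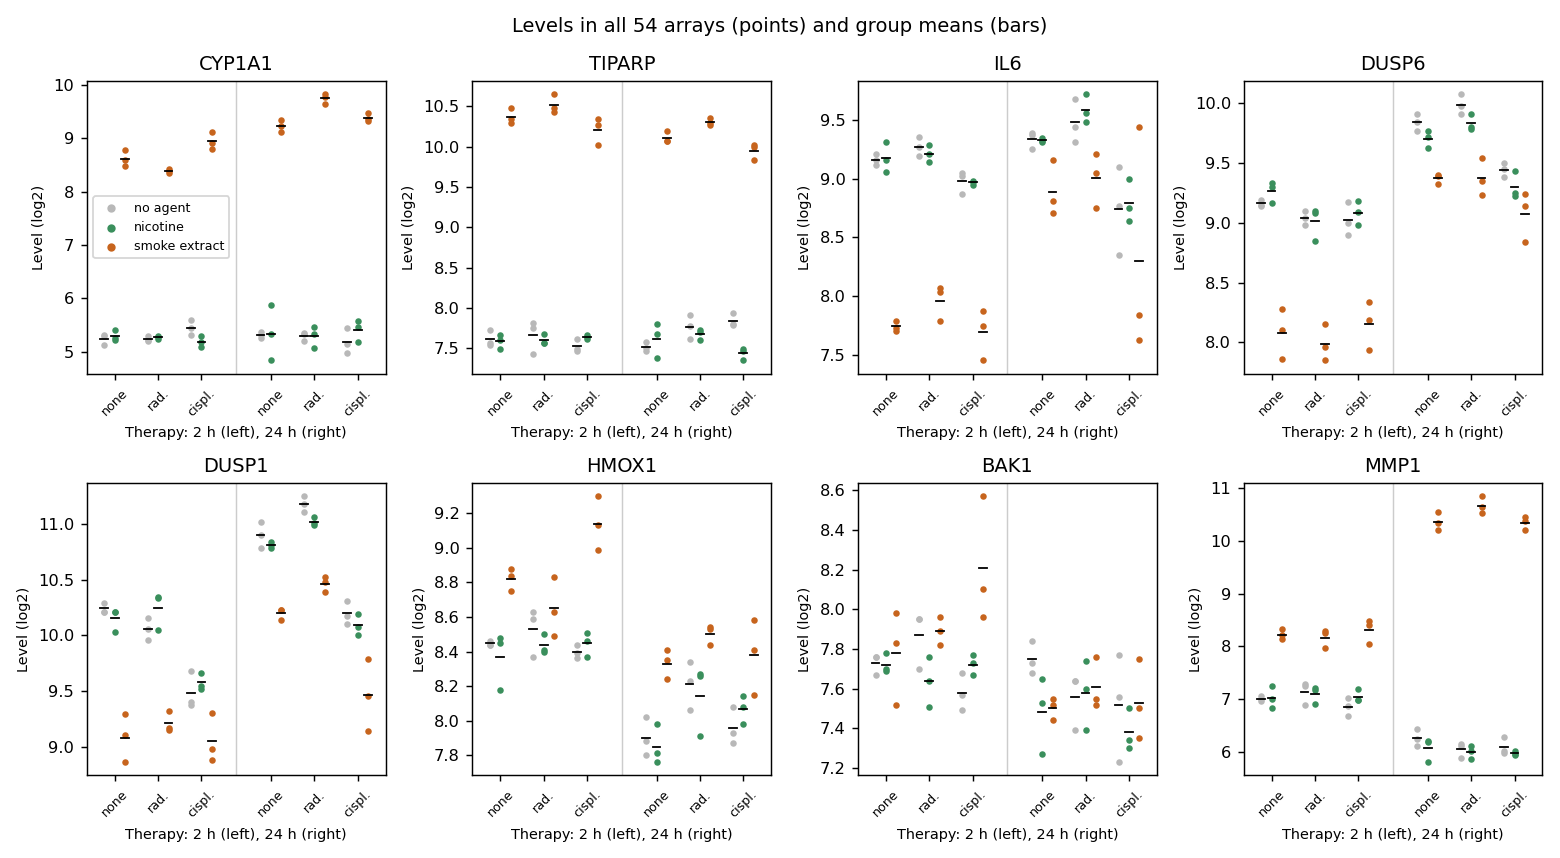
Level of 8 genes in all 54 arrays on a log2 scale, by therapy (none, radiation, cisplatin) at 2 h (left of each panel) and 24 h (right), with grey points for no agent, green for nicotine and orange for smoke extract and black bars for group means of 3 arrays. CYP1A1 and TIPARP are high in each smoke extract group at both times, DUSP1 at 2 h is lower with cisplatin alone than in untreated cells, and MMP1 is higher with smoke extract at 24 h than at 2 h.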

How the data were processed

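Expression was measured on 54 one-colour Affymetrix arrays, 1 RNA sample each. The deposited values were taken as log2, since they ran from 0.89 to 13.81; the base is inferred from that range, and fold changes depend on it. Affymetrix Power Tools 1.15.0 made them, per the submitters' processing notes, and how probes were summarized and normalized is not given in the sources used here. Of 33297 rows, 19460 had exactly 1 gene symbol in the platform annotation, 1754 had several and 12083 none, and the row with the highest mean stood for each of 18417 genes. Detection calls were not used, so levels near background have no lower bound, and 3 arrays a group limit the precision.

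The test was limma 3.58.1 (R 4.3.3) with 18 group means over 54 arrays (36 residual degrees of freedom), eBayes with an intensity trend, p (2-sided) adjusted by Benjamini-Hochberg over all genes, called under 0.05. Genes named were the 15 largest changes each way among called genes without overlap, up to 4 called members per list, 8 genes always given, and 5 each way (or 3 by p) in other comparisons; other list members are given as values after they were seen. Members and lists were chosen with earlier results of these data known. Up to 14 alternative settings were run for the main comparison. The other comparisons had the same settings except that without both replicate 3 arrays, with each array of their own groups left out in turn. Lengths came from RefSeq gene models (found for 99.9% of genes). There were 0 sample columns left unused.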

Additional observations from a re-analysis of the deposited data

Results flagged for a closer look

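The difference in the smoke extract effect on cisplatin-treated cells between 24 h and 2 h passed its own test for 483 genes. The largest increases in the effect were those of MMP1 (2.79), SCUBE1 (1.78), CXCL2 (1.14), VIT (1.05) and CXCL8 (0.97). The largest decreases were those of CMTM3 (-1.45), DEFB1 (-1.32), FSTL4 (-1.27), SERPIND1 (-1.26) and CRYAB (-1.22). All are log2 differences of differences from limma.

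Rows left out of the gene table also held calls, at a lower share than the whole table. When all rows were tested together, 4.12% were called, and of the 13837 rows with no symbol or several symbols 398 were (2.88%), 93 higher and 305 lower. Among the 12083 rows with no symbol, 50 were called higher and 272 lower, and among the 1754 with several symbols 43 and 33. The split of the former is the opposite of that of the named genes, and its part in the results above was not tested.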

How the results depend on the processing

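When the fit held the compared groups alone, the main comparison called 465 genes, 453 of them among the 1005, and the 24 h minus 2 h comparison 83. Without each array in turn the counts ran from 715 to 935 for the main comparison, from 569 to 866 against nicotine and from 171 to 1337 for 24 h minus 2 h. The difference from irradiated cells, with 0 calls, gave 1 under quantile normalization, 1 among genes above the median level, 8 over all rows, 12 with the background mean as a covariate and 0 to 57 without each array. The difference from untreated cells gave 0 in each setting run. Over all rows the main comparison called 736 higher and 636 lower rows; with the background covariate 1013 and 449. Both replicate 3 arrays were left out after seeing the data (958 calls). The replicate block called 1050 genes in the main comparison, 926 against nicotine, 498 for 24 h minus 2 h, 0 for the difference from untreated cells and 2 for that from irradiated cells; same-numbered arrays deviated in opposite directions (r = -0.27, -0.52 and -0.73), so the numbers were not taken as pairs. Of the 79 named genes with a call 58 kept it in each setting run, and 0 reversed. Estimation of array weights did not converge, so that alternative gives no value.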
